A study of Mus musculus with 6 samples.

Results

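The genes of the entry and commitment steps of glycolysis were compared isoform by isoform between IG27 and WT cells. They were 10 genes chosen by name: the hexokinases *Hk1* and *Hk2*, the isomerase gene *Gpi1*, the phosphofructokinase genes *Pfkl*, *Pfkm* and *Pfkp*, and the *Pfkfb* genes *Pfkfb1*, *Pfkfb2*, *Pfkfb3* and *Pfkfb4*. Their probes were found through the RefSeq accession that each spot carries. All 10 were among the 14898 genes that gave enough signal to be tested. Both cell lines derive from OS3, a glial line from the brain of a newborn male C3H/HeN mouse that was immortalized with SV40. WT cells carry the empty vector. IG27 cells were transfected with a plasmid for *H3f3a* with the K27M mutation, which puts methionine in place of a lysine in the tail of histone H3.3, and the methods state that clones were made by drug selection. Each group had 3 samples, cultured for 2 days in the same medium with serum, insulin and added glucose, and each sample was hybridized to 1 single-color array. Nothing in the labels or methods ties the 3 samples of a group to separate clones, so the spread between samples, and every p-value, covers samples of a line and not the spread between clones or transfections.

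Hexokinases phosphorylate glucose to glucose 6-phosphate and thereby hold it in the cell, and Gpi1 turns this sugar into fructose 6-phosphate. Phosphofructokinase then adds a further phosphate in the committed step of glycolysis. Its enzyme is a tetramer built from the L (*Pfkl*), M (*Pfkm*) and P (*Pfkp*) subunits, and cells mix them in proportions that differ between tissues. The PFKFB enzymes both make and degrade the fructose bisphosphate that activates phosphofructokinase most strongly, and the isoforms differ in the balance of their kinase and phosphatase activities. In the brain, Hk1 is the main hexokinase, and astrocytes rely on Pfkfb3 for a high glycolytic rate.

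Between 58.8% and 61.2% of the probes carried the scanning software's flag for a signal well above background on the 5 arrays whose output is complete, and no spot was saturated. The scanner output of IG27 replicate 2 is incomplete, so this array has no such flags and its values come from the deposited value table. Of 6 astrocyte markers, 4 were well above background on all 5 of these arrays, and 2 were higher and 3 lower in IG27. Their summed level, relative to the 75th percentile of each array, ran from 95.8 to 106 in WT and from 55.1 to 63.4 in IG27, a sum made up mostly by the bright probe of *Gfap* (log2 fold change −1.07), whereas *S100b* rose 30.5-fold and *Slc1a3* at least 20.6-fold. Of 7 markers of the oligodendrocyte lineage, 6 were well above background on all 5 arrays, and 4 were higher and 2 lower. Their sum, led by the bright probe of *Sox10* (−0.37), ran from 73.4 to 75.6 in WT and from 74.5 to 77.1 in IG27, while *Pdgfra* rose 5.14-fold, *Olig2* 2.85-fold, *Olig1* 2.80-fold and *Mbp* 1.89-fold. The 6 neuronal markers summed to between 4.60 and 5.92 in WT and between 7.85 and 8.83 in IG27. Of these *Map2* was the 1 called (log2 fold change 8.03, well above background on 1 WT array), *Snap25* was not called (−0.11, adjusted p = 0.41, limma), and *Rbfox3* and *Syt1* were not well above background on any array. The 4 endothelial markers summed to between 0.168 and 0.187 in WT and between 2.60 and 2.66 in IG27, a rise that lay in *Kdr* (at least 135-fold higher), while *Pecam1* was lower (−0.27) and *Cdh5* and *Cldn5* were not well above background on any array. Of 5 markers of fibroblasts and pericytes 1 was higher and 2 lower, with *Lum* not well above background on any array. *Dcn* was higher (at least 3.32-fold), and *Pdgfrb* (−1.16) and *Col1a1* (−0.92) were lower. The sum of the 5 ran from 126 to 129 in WT and from 64.3 to 69.6 in IG27, mostly from *Col1a1*. Of 5 microglial markers 3 were higher and 1 lower, with *Cx3cr1* not well above background on any array, and their sum ran from 12.5 to 13.7 in WT and from 13.3 to 13.8 in IG27. The part of these marker shifts in the results below was not tested, and in bulk RNA fewer cells of a type and less RNA per cell cannot be told apart. The probe of *H3f3a* itself was slightly lower in IG27 (log2 fold change −0.26, SE 0.08, adjusted p = 0.0237, limma), and whether it detects the transfected copy was not tested.

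All 6 genes of the hexokinases, the isomerase and the phosphofructokinases were higher in IG27 cells, and all 4 *Pfkfb* genes were lower. *Pfkfb2*, however, lost its call under 4 of 15 distinct alternative settings and under 1 of these also changed sign. A gene was called when its limma p, adjusted over the 14898 genes tested, was under 0.05. By this rule 10 of 10 were called, beside 70.5% of all genes tested, of which 30.5% were called higher and 40% lower. The 3 WT and 3 IG27 values did not overlap for any of the 10, and that held for 75.7% of all genes tested (33.3% with IG27 higher and 42.4% with IG27 lower). These counts therefore stand close to the background of a comparison in which most genes were called. The 6 higher genes had a median log2 fold change of 0.96 and the 4 *Pfkfb* genes one of −0.83, beside −0.07 over all genes tested, whose 5th and 95th percentiles were −1.61 and 2.46. Only *Pfkp*, at 5.89, lay outside that range.

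**Figure D1:**
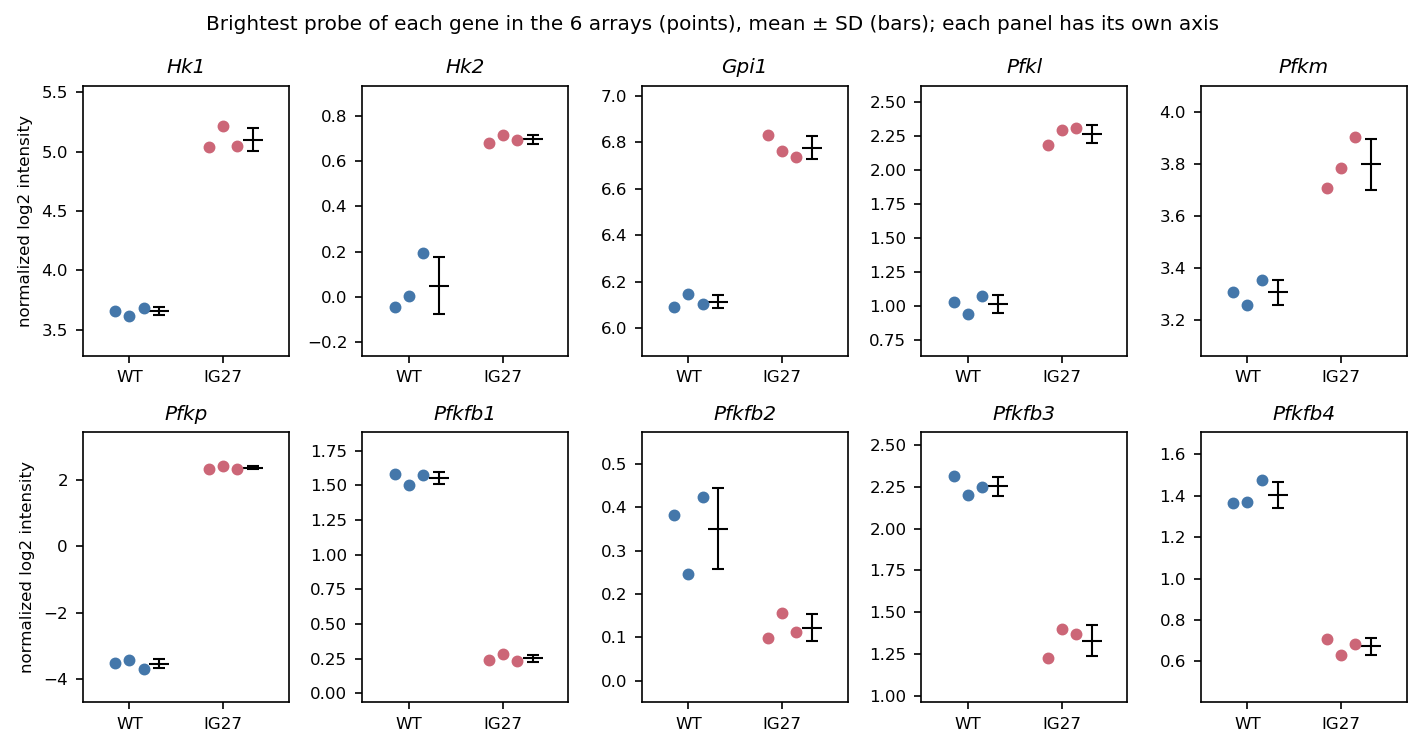
Normalized log2 signal (log2 of the processed signal minus the 75th percentile of the array) of the 10 genes on each array, with WT and IG27 arrays in separate colors, a point for each array and bars for each group's mean ± SD (n = 3). The 3 IG27 points lie above the 3 WT points for the hexokinases, *Gpi1* and the phosphofructokinases and below them for the 4 *Pfkfb* genes, and the changes other than that of *Pfkp* lie between −1.30 and 1.45. Each panel has its own axis, and heights of different genes cannot be compared, since each probe has its own brightness.

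*Hk1*, the hexokinase that binds to the outer mitochondrial membrane in brain, rose 2.72-fold. Its normalized log2 signal was 3.66, 3.62 and 3.69 in WT and 5.04, 5.21 and 5.05 in IG27. The log2 fold change was 1.45 (SE 0.064, 95% interval 1.29 to 1.60, adjusted p = 4.94e-06, limma), and 14.6% of all genes tested had a larger absolute change. *Hk2*, the insulin-responsive hexokinase of muscle and fat that many tumors express, was at −0.05, 0.00 and 0.19 in WT and at 0.68, 0.72 and 0.69 in IG27. It rose 1.57-fold (log2 fold change 0.65, SE 0.073, 95% interval 0.47 to 0.82, adjusted p = 0.000312, limma). Both hexokinases were thus higher in every IG27 sample than in any WT sample, *Hk1* by the larger step.

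*Gpi1*, which encodes the isomerase between the hexokinase and phosphofructokinase steps, was at 6.09, 6.15 and 6.10 in WT and at 6.83, 6.76 and 6.74 in IG27. It rose 1.58-fold (log2 fold change 0.66, SE 0.049, 95% interval 0.54 to 0.78, adjusted p = 4.51e-05, limma). The array carries 3 probes for it, and the other probes rose by 0.60 and 0.79 on the log2 scale.

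*Pfkp*, the platelet-type subunit that is also abundant in brain and in many tumors, showed by far the greatest change of the 10 genes. Its processed signal was between 76.9 and 97.8 on the WT arrays and between 5044.5 and 6045.5 on the IG27 arrays, while the median local background was 29.0 to 34.0 on the complete arrays. On the normalized log2 scale it was at −3.50, −3.41 and −3.68 in WT and at 2.34, 2.41 and 2.34 in IG27. The spot was well above background on all 3 WT arrays, so the ratio rests on measured signal in both groups, though a low one in WT. The rise was 59.5-fold (log2 fold change 5.89, SE 0.079, 95% interval 5.70 to 6.09, adjusted p = 9.02e-08, limma), and 181 of the 14898 genes, or 1.21%, had a larger absolute change. With normexp background correction on the complete arrays the log2 fold change was 5.04, below this interval. A further *Pfkp* probe, also well above background on all WT arrays, rose 44.9-fold (log2 fold change 5.49, SE 0.12). It was between −5.09 and −4.60 in WT, and the lowest signal flagged as well above background on these arrays was between −6.01 and −5.53.

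The other subunits rose much less. *Pfkl*, the liver-type subunit, was at 1.03, 0.94 and 1.07 in WT and at 2.19, 2.30 and 2.31 in IG27, a rise of 2.38-fold (log2 fold change 1.25, SE 0.061, 95% interval 1.10 to 1.40, adjusted p = 7.33e-06, limma). *Pfkm*, the muscle-type subunit, was at 3.31, 3.26 and 3.35 in WT and at 3.71, 3.78 and 3.90 in IG27. It rose 1.41-fold (log2 fold change 0.49, SE 0.066, 95% interval 0.33 to 0.65, adjusted p = 0.000705, limma), the smallest step of the 6 higher genes, and 48.2% of all genes tested had a larger absolute change.

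The sequence upstream of *Pfkp* is shown with those of its family member *Pfkl* and of *Pfkfb4*, a gene that fell. Each of these genes has a single start in the RefSeq promoter table (GRCm38.p6), and they moved by different amounts and in both directions. *Hk2* and *Gpi1* also have a single start and are not shown, so the sequences are a choice among such genes. Each stretch shown is the 250 bases before the start, 5′ to 3′ on the strand of the gene, at chr13:6648772-6649021 (minus strand), chr10:78009808-78010057 (minus strand) and chr9:108991652-108991901 (plus strand). Capitals mark GCGTG, a form of the core of the hypoxia response element that HIF binds.
Pfkp: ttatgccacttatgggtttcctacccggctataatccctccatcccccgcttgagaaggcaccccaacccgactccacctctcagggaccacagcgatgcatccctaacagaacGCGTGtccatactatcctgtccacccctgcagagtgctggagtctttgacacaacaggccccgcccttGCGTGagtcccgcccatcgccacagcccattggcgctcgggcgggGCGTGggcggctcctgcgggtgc
Pfkl: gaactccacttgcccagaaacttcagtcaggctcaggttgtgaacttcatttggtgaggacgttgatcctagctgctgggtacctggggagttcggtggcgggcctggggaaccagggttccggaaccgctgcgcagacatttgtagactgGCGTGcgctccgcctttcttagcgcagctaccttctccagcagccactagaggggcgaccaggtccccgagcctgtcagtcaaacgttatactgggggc
Pfkfb4: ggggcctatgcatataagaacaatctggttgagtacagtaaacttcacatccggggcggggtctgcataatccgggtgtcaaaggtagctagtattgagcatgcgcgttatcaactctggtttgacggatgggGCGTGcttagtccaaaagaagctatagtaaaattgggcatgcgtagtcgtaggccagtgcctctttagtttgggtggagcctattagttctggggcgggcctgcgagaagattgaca

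The *Pfkp* stretch holds GCGTG with its first base at −136, −68 and −23 from the start, and the *Pfkl* and *Pfkfb4* stretches hold it once each, at −99 and −117. Over windows of 300 bases, from 250 before to 50 after the start and on both strands, ACGTG was in 19.6% and GCGTG in 32.4% of all 32851 promoters of the table, and either was in 43.8%. The 10 genes have 20 promoters in the table, of which 8 held ACGTG, 10 held GCGTG and 14 held either. Both strings contain CG, and 13 of the 20 promoters held at least 7 CG, the median over all promoters. Whether the 10 genes hold the strings more often than promoters with as many CG was not tested. Some windows of *Pfkm* and of *Pfkfb2* overlap, so the 20 promoters are not separate counts. *Gpi1* was the gene with neither. The E-box CACGTG, which contains ACGTG on both strands, was in 7.15% of all promoters and in 1 promoter each of *Pfkm*, *Pfkfb2* and *Pfkfb3*. Genes that rose and genes that fell both held these letters. They are matches of letters and say nothing about binding in these cells.

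All 4 *Pfkfb* genes were lower in IG27 cells, by amounts from 1.17-fold to 2.46-fold. *Pfkfb1*, the liver and muscle isoform, was at 1.58, 1.50 and 1.57 in WT and at 0.24, 0.28 and 0.24 in IG27. It fell 2.46-fold (log2 fold change −1.30, SE 0.047, 95% interval −1.42 to −1.18, adjusted p = 2.22e-06, limma). *Pfkfb3*, the inducible isoform whose kinase activity far exceeds its phosphatase activity, was at 2.31, 2.20 and 2.25 in WT and at 1.22, 1.40 and 1.37 in IG27. It fell 1.90-fold (log2 fold change −0.92, SE 0.066, 95% interval −1.08 to −0.76, adjusted p = 3.85e-05, limma). Both isoforms were thus lower in every IG27 sample than in any WT sample.

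*Pfkfb4*, first described in testis and also induced by hypoxia, was at 1.36, 1.37 and 1.48 in WT and at 0.71, 0.63 and 0.68 in IG27. It fell 1.66-fold (log2 fold change −0.73, SE 0.054, 95% interval −0.86 to −0.60, adjusted p = 4.70e-05, limma). *Pfkfb2*, the heart isoform, moved least, from 0.38, 0.25 and 0.42 in WT to 0.10, 0.16 and 0.11 in IG27. Its log2 fold change was −0.23 (SE 0.062, 95% interval −0.38 to −0.08, adjusted p = 0.0159, limma), and 71.6% of all genes tested had a larger absolute change. This call did not hold without WT replicate 3 (−0.19, adjusted p = 0.0512, limma), with the slide row as a block (−0.12, adjusted p = 0.174, limma) or with normexp background correction (−0.16, adjusted p = 0.123, limma). With the mean of its 3 probes the direction turned (0.0343, adjusted p = 0.717, limma).

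The array carries 19 probes for the 10 genes, of which 17 could be tested and 15 were called. These 15 include the brightest probe of each of the 10 genes, which is the probe used above. The further called probes, of *Gpi1*, *Pfkp*, *Pfkfb2* and *Pfkfb3*, went in the direction of the brightest probe of their gene. Over all 21895 probes tested, 69.7% were called. The tested probes that were not called were a dim probe of *Pfkfb1* (log2 fold change −0.71, SE 0.51, adjusted p = 0.255 over probes, limma) and a dim probe of *Pfkfb2* (0.53, SE 0.25, adjusted p = 0.105 over probes, limma). The dim *Pfkfb1* probe was at −4.45, −2.61 and −2.54 in WT and at −3.90, −3.81 and −4.02 in IG27, so its groups overlapped. The dim *Pfkfb2* probe ran from −5.68 to −4.70 in WT and from −4.65 to −4.45 in IG27. Its groups thus did not overlap, in the direction opposite to the brightest *Pfkfb2* probe, and it was well above background on only 2 WT arrays. A further *Pfkfb3* probe fell by 0.67 on the log2 scale (adjusted p = 0.0025 over probes, limma) but was well above background on 1 of the 2 IG27 arrays with flags, and a second *Pfkfb2* probe fell by 0.19 (adjusted p = 0.0162 over probes, limma). *Hk2*, *Pfkl* and *Pfkm* rest on 1 probe each. The second probes of *Hk1* and *Pfkfb4* were too dim to test.

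**Figure D2:**
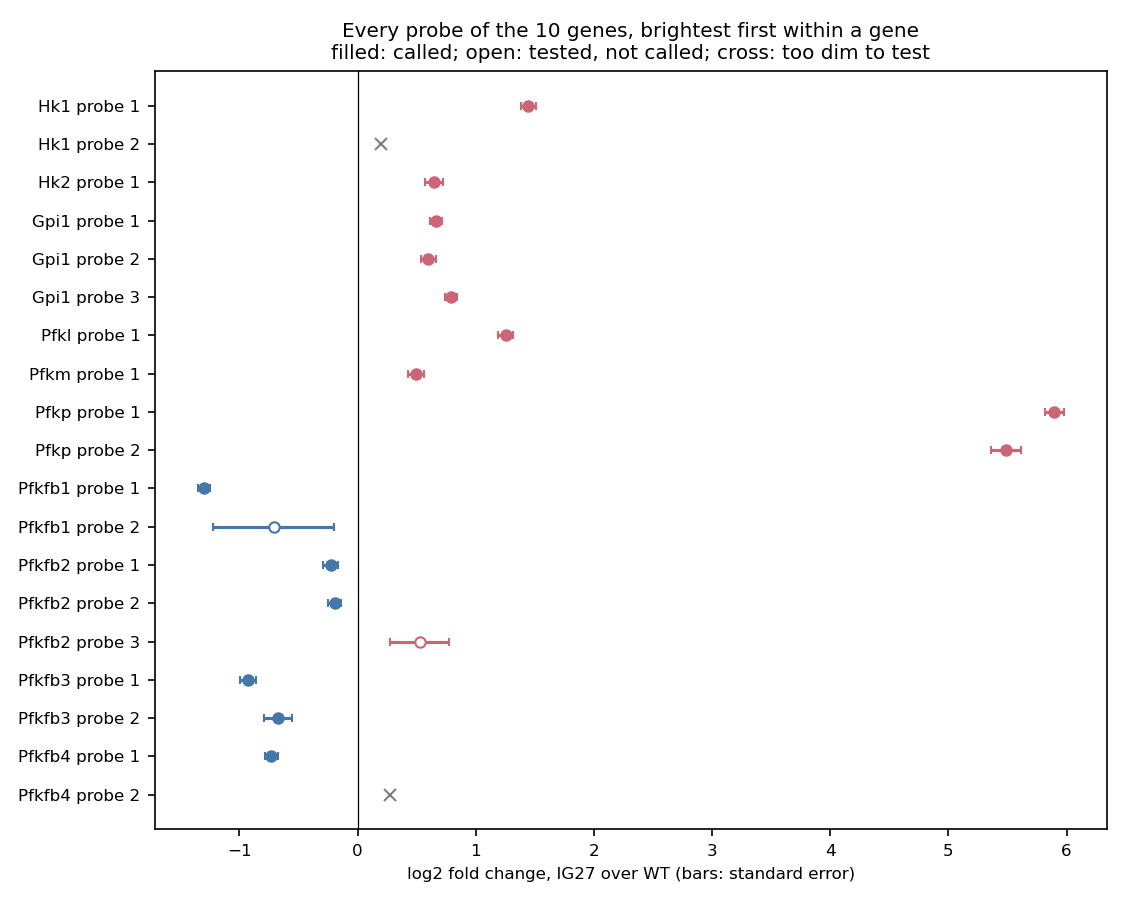
Log2 fold change (IG27 minus WT) of each probe of the 10 genes, with its standard error from limma. Filled points were called, open points were tested and not called, and crosses were too dim to test. Probes of *Gpi1* and *Pfkp* lie close together, while the dim probes of *Pfkfb1* and *Pfkfb2* have the widest error bars (0.51 and 0.25).

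The balance of isoforms was compared through the difference of their log2 signals within each array, which another scaling of the whole array by a constant would leave as it is. The groups did not overlap for any of the 10 pairs, and with 3 arrays against 3 each exact two-sided permutation test gave p = 0.1, the smallest it can give (0.1 after Benjamini-Hochberg adjustment over the 10 pairs). For *Pfkfb3* against *Pfkfb4* the separation was slight, with a lowest WT difference of 0.7711 and a highest IG27 difference of 0.7685. The share of other gene pairs without overlap was not computed, and 75.7% of single genes tested did not overlap. The 10 pairs also share genes, so they are not independent of each other. *Pfkp* rose over *Pfkl* by 4.64 and over *Pfkm* by 5.40 on the log2 scale, and with its other probe by 4.23 and 4.99. *Pfkm* shifted against *Pfkl* by −0.76, and *Hk2* against *Hk1* by −0.80. *Pfkfb1* shifted against *Pfkfb2* by −1.07, and *Pfkfb2* against *Pfkfb3* by 0.70 and against *Pfkfb4* by 0.50. Over all pairs of tested probes of these genes the shifts ran from −1.82 to −0.48, from 0.45 to 1.45 and from 0.50 to 1.26. The remaining shifts were −0.38 for *Pfkfb1* against *Pfkfb3*, −0.57 for *Pfkfb1* against *Pfkfb4* and −0.19 for *Pfkfb3* against *Pfkfb4*, and these turned in sign with other tested probes of the genes.

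**Figure D3:**
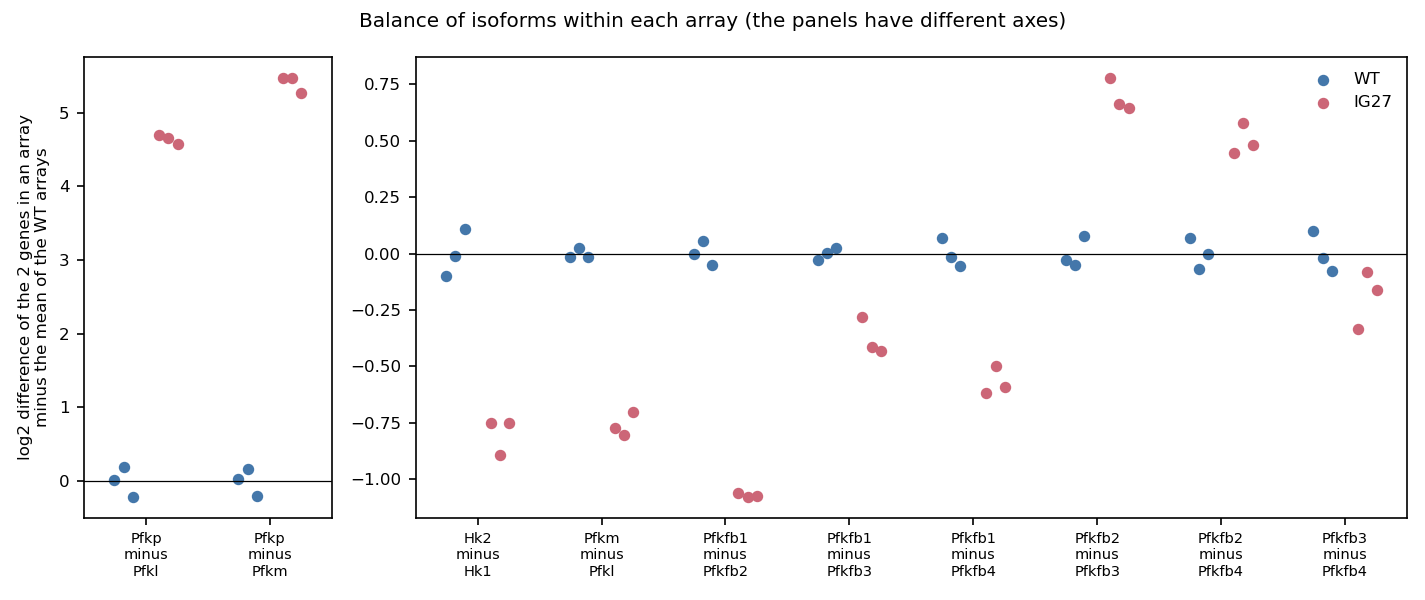
Log2 difference of the signals of a pair of genes within each array, minus the mean of that difference over the WT arrays, with a point for each array and the WT mean at 0. The left panel holds the *Pfkp* pairs, which shift by 4.64 and 5.40, on an axis of its own, and all shifts of the right panel lie between −1.07 and 0.70.

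The genes around these steps moved in both directions. Of 16 neighboring enzymes of glucose 6-phosphate and the fructose phosphates, 12 could be tested, of which 6 were higher and 5 lower, with a median log2 fold change of 0.32 beside −0.07 over all genes tested. *Hkdc1*, a hexokinase-like gene beside *Hk1* on chromosome 10, was higher. Its normalized log2 signal ran from −5.59 to −5.27 in WT and from −1.48 to −1.45 in IG27 (fitted log2 fold change 4.01). It passed the filter on dim probes only through its IG27 signal, so no p-value is given for it. It was well above background on 1 of the 3 WT arrays, and the lowest signal with that flag was between −6.01 and −5.53 on these arrays, so the size rests on a WT group near background. *Adpgk*, a kinase of glucose that uses ADP, was lower (−1.31, SE 0.082, adjusted p = 2.17e-05, limma). *Hk3*, a further hexokinase, was not called (0.43, SE 0.26, adjusted p = 0.189, limma).

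Of the 16 genes of lower glycolysis, 12 could be tested, of which 6 were higher and 3 lower, with a median of 0.27. Past a log2 fold change of 1 were *Aldoc*, the brain aldolase (2.86, adjusted p = 5.80e-07, limma), and the isomerase gene *Tpi1* (1.28, adjusted p = 1.86e-06, limma), both higher. *Bpgm*, which diverts a glycolytic intermediate into bisphosphoglycerate, was lower (−1.03, adjusted p = 5.19e-06, limma). *Pklr*, the liver and red cell pyruvate kinase, was not well above background on the IG27 arrays with flags and was at least 2.2-fold lower there. It passed the filter on dim probes only through its WT signal, so no p-value is given for it. Of the mitochondrial channels to which hexokinases dock, *Vdac2* and *Vdac3* were lower by 0.52 and 0.57 on the log2 scale, and *Vdac1* was not called (−0.10, adjusted p = 0.145, limma).

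**Figure D4:**
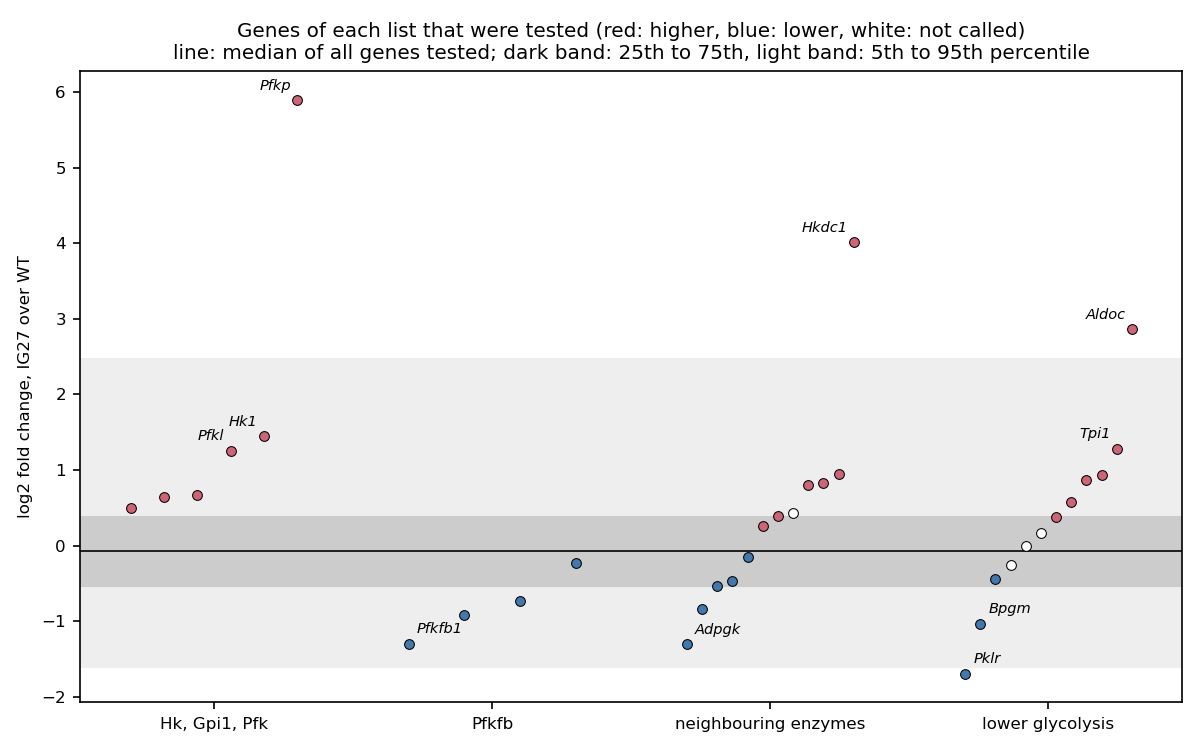
Log2 fold change (IG27 minus WT) of each tested gene of the 10 genes, of the neighboring enzymes and of lower glycolysis. Red points were called higher, blue lower and white not called, and the line and bands are the median and the 25th to 75th and 5th to 95th percentiles of all genes tested. *Pfkp* lies above every other point of the plot, followed by *Hkdc1*, near background in WT, at a fitted 4.01 and *Aldoc* at 2.86.

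Whole chromosomes differed in their median change, so each gene was set beside the genes around it. The median log2 fold change was −0.64 over the 813 genes tested on chromosome 9, where *Pfkfb4* lies, and −0.59 over the 513 on chromosome X, where *Pfkfb1* lies. *Pfkfb4* fell by 0.09 and *Pfkfb1* by 0.71 relative to these medians. *Pfkfb3* fell by 0.59 relative to chromosome 2, *Pfkm* rose by 0.20 relative to chromosome 15, and *Pfkp* rose by 6.06 relative to chromosome 13. Of the 10 tested genes nearest to *Pfkfb4*, none was above 0 and their median was −0.56, and of those nearest to *Pfkfb1* 1 was above 0 and the median was −1.14. The 10 genes nearest to *Pfkp* had a median of 0.09 with 5 above 0, and those nearest to *Hk2* a median of −0.41 with 2 above 0. Around *Hk1*, 9 of 10 were above 0 with a median of 0.82, *Hkdc1* among them. The part of these regional shifts in the changes of single genes was not tested.

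**Figure D5:**
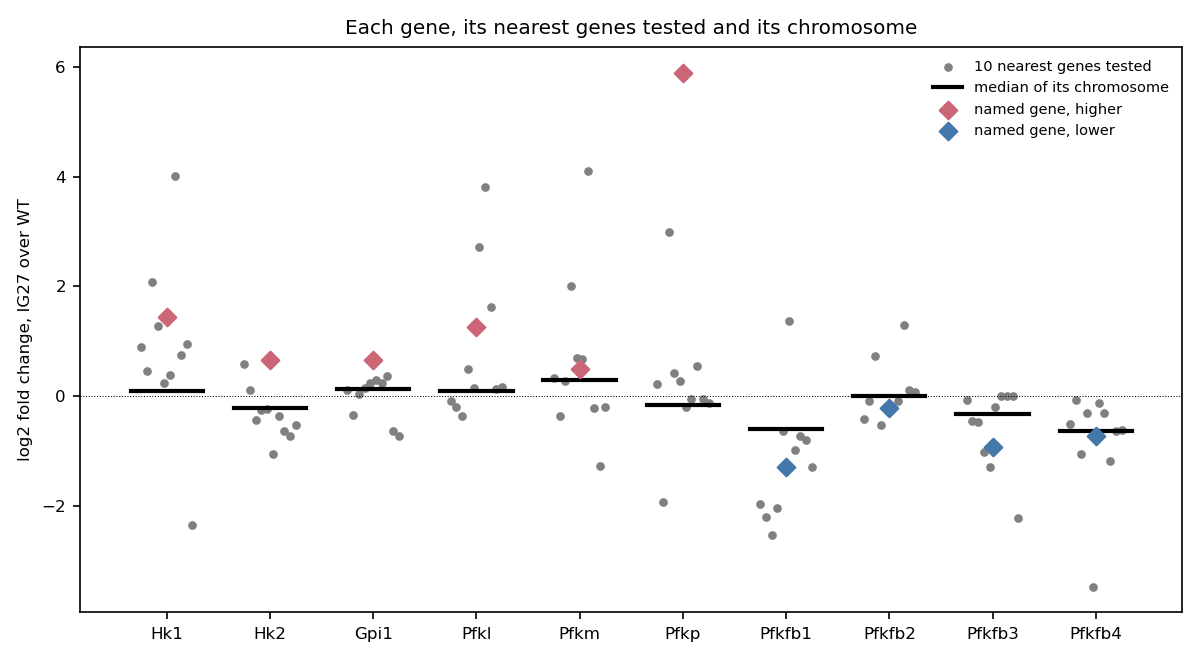
Log2 fold change (IG27 minus WT) of each of the 10 genes, of the 10 tested genes nearest to it and of the median over its chromosome. *Pfkp* stands far from all of its neighbors, whose highest value is 2.99, and *Pfkfb1* and *Pfkfb4* lie near the medians of theirs, at −1.14 and −0.56.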

How the data were processed

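RNA from 3 WT and 3 IG27 samples was hybridized to 6 single-color Agilent mouse arrays of 1 slide, and the authors deposited the intensity of each spot from Feature Extraction (version 10.7.3.1 in the file headers, 9.1 in the submitters' processing notes), with a table of the same intensity values per probe. The scanner output of IG27 replicate 2 holds 285 of 62976 spots, so the table was used for it. In the table the values of WT replicates 2 and 3 are exchanged relative to their scanner output (relative tolerance 0.0001), which was used for both. Values were log2 of the processed signal minus the 75th percentile of the array, without outlier spots where the scanner output was complete. The table values used for IG27 replicate 2 carry no outlier flags, so none of its spots were left out. A gene was tested where at least 1 of its probes was well above background on every array with flags of at least 1 group. Of such probes the brightest, by mean over the 6 arrays, was used. Groups were compared with limma 3.58.1 in R 4.3.3 (eBayes after lmFit, two-sided, Benjamini-Hochberg, 0.05), and the scripts were tested on simulated data. The number of arrays limits the precision.

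The members and lists were chosen with earlier results of these data known. All members are named, and of the pathway lists those called with an absolute log2 fold change of at least 1. Genes named beside these (*Hk3*, the *Vdac* genes, *H3f3a* and the single cell type markers) were chosen after their values were seen. Isoform pairs were compared by an exact permutation test. The alternatives were normexp (offset 50, complete arrays), quantile normalization, no filter and a stricter one, outlier spots kept, the mean of probes, eBayes with trend, replicate number or slide row as a block, the complete arrays only and each array left out. Values relative to the chromosome median and other probe pairs were added after seeing the data.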

Additional observations from a re-analysis of the deposited data

How the results depend on the processing

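The 5 complete arrays are also those left without IG27 replicate 2, so 15 of the 16 settings were distinct, and under these 146 of the 150 values of the 10 genes kept their direction and their side of the threshold. The other 4 were those of *Pfkfb2* given above, of which the mean of its probes, 0.0343, reversed the direction, and their cause was not tested. The log2 fold change of *Pfkp* ran from 5.04 to 5.95, that of *Hk1* from 1.39 to 1.59 and that of *Pfkfb1* from −1.32 to −1.01. With other tested probes the shift of *Pfkfb1* against *Pfkfb3* reached 0.21, that of *Pfkfb1* against *Pfkfb4* 0.0200 and that of *Pfkfb3* against *Pfkfb4* 0.0568, all of reversed sign, and these pairs were chosen after seeing the data. The number of genes called ran from 8946 with the slide row as a block to 10821 with quantile normalization, and from 9799 to 10143 when each array was left out. Without a filter on dim probes the median log2 fold change of all genes was 0.12 in place of −0.07. The labels number both groups 1 to 3, but deviations of same-numbered samples correlated by 0.01, 0.04 and 0.08, so the numbers were not taken to pair samples, and not every sample correlated best with its own number. With replicate number as a block 10309 genes were called, and of the 10 genes 6 were higher and 4 lower. WT replicate 2 shared its slide row with the IG27 arrays and the other WT arrays did not, so the fit with row as a block compares IG27 with WT replicate 2. Probes near background, such as the dim probes of *Pfkfb1* and *Pfkfb2*, limit what can be seen for them.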
